A study of Homo sapiens and Mus musculus with 18 samples.

Results

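The transcriptomes of mouse naïve ESCs and of early gastruloids made from them were compared, over 13775 genes with enough counts in these 4 libraries out of 29720 in the table. Both groups came from the E14Tg2a (E14) ESC line and had 2 biological replicates each. Naïve ESCs were grown in 2iLIF medium, which holds the GSK3 inhibitor CHIR99021 (3 µM), the MEK inhibitor PD0325901 (1 µM) and leukaemia inhibitory factor (LIF, 1000 U/ml). Early gastruloids were aggregates seeded at 300 of these ESCs per well in N2B27 medium without inhibitors or LIF, given 3 µM CHIR99021 at 48 h and sampled 24 h later, at 72 h. CHIR99021, which activates WNT signalling by blocking GSK3, was thus given to both groups, whereas PD0325901 and LIF were given only to naïve ESCs. Both groups are of 1 cell line, the replicates of a group were collected in the same experimental batch, and a gastruloid library averages all cells of its aggregates. In such bulk RNA, fewer cells expressing a gene and less RNA of it per cell cannot be told apart.

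The naïve state is the ground state of pluripotency of the pre-implantation epiblast. It is held by transcription factors such as Nanog, Esrrb, Klf4, Tfcp2l1 and Tbx3, which LIF-STAT3 signalling and GSK3 inhibition sustain while MEK inhibition blocks the FGF-ERK signal that drives exit. After implantation the epiblast passes through a formative state marked by Otx2, Fgf5 and the de novo DNA methyltransferases. WNT and NODAL then induce the primitive streak, in which T (brachyury), Mixl1 and Eomes are expressed and from which mesoderm and endoderm arise. Axial progenitors at the tail end of the streak later switch on Cdx and HOX genes in a 3′ to 5′ order, and the presomitic mesoderm that they feed expresses Tbx6, Msgn1 and the segmentation clock genes.

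Library totals were 7548807 and 11902627 counts in naïve ESCs and 20052505 and 11345059 in early gastruloids. A count of 0 allows a true value of up to 3 counts, or between 0.146 and 0.409 CPM in these libraries, where CPM are counts scaled to normalized libraries of one fixed size. This floor and the intervals given for ratios of counts cover counting error only. Pearson's r between replicates, across genes, was 0.991 in naïve ESCs and 0.995 in early gastruloids. All 20 naïve factors listed were detected in both naïve libraries, where T, which defines the streak, stood at 2.59 and 3.25 CPM against 209 and 209 CPM in early gastruloids. Mitochondrially encoded genes took 1.64% and 2.00% of counts in naïve ESCs and 3.25% and 3.64% in early gastruloids, and their part in the results was not tested. With every library thinned to the smallest total, an alternative added after the data had been seen, 1834 genes were higher and 912 lower.

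The groups were compared by the quasi-likelihood test of edgeR. Differentially expressed transcripts (DETs) needed an adjusted p (Benjamini-Hochberg, all tested genes) under 0.05 and a log2 fold change beyond 1 in either direction. A gene was called kept where the 95% interval of its log2 fold change lay wholly within 1 of 0, that is within a 2-fold change. Errors of log2 fold changes are standard errors of the fit, and paired CPM values are those of replicates 1 and 2. In early gastruloids 2145 genes were higher (15.6% of those tested) and 992 lower (7.20%), 8808 were kept (63.9%), and 1830 were neither. The median log2 fold change over all tested genes was 0.01. DETs were mostly protein-coding (1928 higher and 889 lower of 12696 tested), with 155 higher and 62 lower among 554 long non-coding RNAs. At the adjusted p alone 9149 genes differed, since replicates varied little (biological coefficient of variation 4.30%), so the fold threshold set most of the calls.

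**Figure D1:**
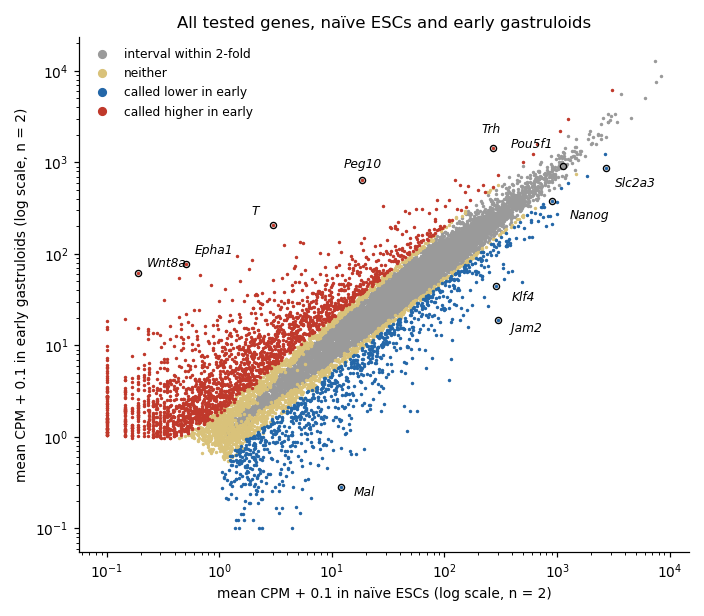
Mean CPM of each tested gene in naïve ESCs (x axis) and early gastruloids (y axis), both on log scales after adding 0.1 CPM, with 2 replicates per group. Red points are the 2145 genes called higher in early gastruloids and blue points the 992 called lower, and circles mark genes named in the text, T at 209 CPM in both early libraries among them.

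Of 20 naïve pluripotency factors, all tested, 11 were lower in early gastruloids, 6 were kept, 3 were neither and 0 were higher. The background was 7.20% lower and 63.9% kept over all tested genes, and the median log2 fold change of the list was −1.07. Summed over the list, the level was 7204 and 7241 CPM in naïve ESCs and 3067 and 3069 CPM in early gastruloids, or 42.5% of the naïve level. The genes did not move alike, since the level left at 72 h ran from 6.27% of the naïve level in Jam2 to 149% in Dppa3.

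The kept genes included 2 Krüppel-like factors. Klf2 stood at 439 and 459 CPM in naïve ESCs and 327 and 325 CPM in early gastruloids, a log2 fold change of −0.46 ± 0.05, and Klf5 at 223 and 209 CPM in naïve ESCs and 136 and 131 CPM in early gastruloids (−0.69 ± 0.06). Both were lower in each early library than in either naïve one, by less than the 2-fold threshold. Pecam1, a cell adhesion molecule of the naïve epiblast, stood at 123 and 121 CPM in naïve ESCs and 125 and 123 CPM in early gastruloids, and its groups overlapped (0.02 ± 0.06). Manba, which encodes a lysosomal mannosidase, stood at 219 and 224 CPM in naïve ESCs and 203 and 207 CPM in early gastruloids (−0.11 ± 0.06). Morc1, a repressor of transposons in the germ line, stood at 161 and 153 CPM in naïve ESCs and 112 and 109.8 CPM in early gastruloids (−0.50 ± 0.06). The remaining kept gene, Dppa3 (Stella), a maternal and germline factor that protects methylation marks, was the only member of the list with both early libraries above both naïve ones, at 27.1 and 24.2 CPM in naïve ESCs and 38.1 and 38.4 CPM in early gastruloids (0.59 ± 0.10, interval 0.39 to 0.78).

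The central factors Nanog and Esrrb fell and were still abundant. Nanog (GRCm39 chromosome 6, 122679780 to 122691601), a homeodomain factor, fell from 897 and 890.4 CPM to 375 and 386 CPM, a log2 fold change of −1.23 ± 0.05 (adjusted p = 8.82e-24). Esrrb, an orphan nuclear receptor (GRCm39 chromosome 12, 86407887 to 86568409), fell from 1083 and 1093 to 532 and 508 CPM (−1.06 ± 0.05, adjusted p = 2.09e-22). In neither gene did the groups overlap, and more than 40% of the naïve level was left, 42.5% for Nanog and 47.8% for Esrrb. The Esrrb and Fbxo15 calls lie near the threshold and were lost in a test against a 2-fold change (adjusted p = 0.175 and 0.204 with edgeR's glmTreat).

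Other naïve factors fell further. Klf4, a Krüppel-like factor downstream of LIF-STAT3 (GRCm39 chromosome 4, 55527139 to 55532528), fell from 293 and 284 to 43.9 and 45.8 CPM (−2.69 ± 0.07, adjusted p = 3.52e-31). Prdm14, which represses FGF receptor signalling and de novo methylation, fell from 125 and 126 to 27.7 and 26.8 CPM (−2.20 ± 0.08). Tbx3, a T-box factor, fell from 239 and 246 to 71.5 and 74.5 CPM (−1.74 ± 0.06). These 3 retained 15.6%, 21.7% and 30.1% of their naïve levels. Tfcp2l1, a CP2-family factor, fell from 810 and 847 to 257 and 259 CPM (−1.68 ± 0.05). Nr0b1 (Dax1), an orphan nuclear receptor, fell from 352 and 366 to 125 and 119.7 CPM (−1.55 ± 0.06), and Tcl1, an AKT co-activator, from 195 and 203 to 61.8 and 63.5 CPM (−1.67 ± 0.06). Spp1, which encodes the secreted protein osteopontin, fell from 908 and 886 to 209.7 and 214 CPM (−2.08 ± 0.05). The largest fall in the list was in Jam2, a junctional adhesion molecule, from 302 and 302 CPM to 19.3 and 18.5 CPM (−3.99 ± 0.08, adjusted p = 1.03e-34).

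Zfp42 (Rex1), the classic reporter gene of the naïve state, was neither kept nor a DET. It stood at 311 and 334 CPM in naïve ESCs and 169.7 and 174 CPM in early gastruloids, a log2 fold change of −0.91 ± 0.06 with an interval of −1.02 to −0.79. Nr5a2 (−0.99 ± 0.07) and the methylcytosine dioxygenase gene Tet2 (−0.91 ± 0.10) lay in the same range. In all 3, both early libraries were below both naïve ones.

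**Figure D2:**
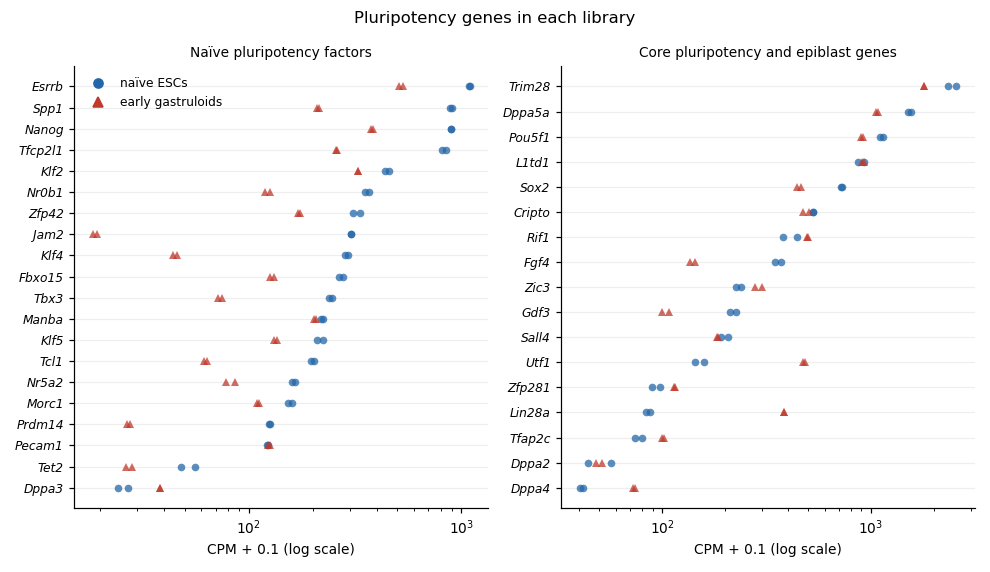
CPM of each library, on a log scale after adding 0.1, for the 20 naïve pluripotency factors (left) and 17 core pluripotency and epiblast genes (right), ordered by the naïve mean, with blue circles for the 2 naïve and red triangles for the 2 early libraries. In the left panel 19 of 20 genes have groups that do not overlap (82.3% of all tested genes do not), Pecam1 being the exception, and Dppa3 alone among those lies to the right in early gastruloids.

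Of 17 core pluripotency and epiblast genes, which the naïve and later epiblast share, 12 were kept (70.6%, near the 63.9% kept of all tested genes). The rest were 2 higher (background 15.6%), 2 lower (7.20%) and 1 neither. Pou5f1 (Oct4; GRCm39 chromosome 17, 35816789 to 35822274), the POU factor required for pluripotency, stood at 1109 and 1145 CPM in naïve ESCs and 920.4 and 894 CPM in early gastruloids (−0.31 ± 0.05). Its partner Sox2 stood at 726 and 715 CPM in naïve ESCs and 442 and 459.7 CPM in early gastruloids (−0.68 ± 0.05), so each early library was below each naïve one within the 2-fold limit. L1td1, an RNA-binding protein derived from LINE-1, stood at 923 and 868 CPM in naïve ESCs and 905 and 929 CPM in early gastruloids, with overlapping groups. Cripto, the NODAL co-receptor, stood at 529.5 and 529 CPM in naïve ESCs and 473 and 507 CPM in early gastruloids (−0.11 ± 0.05), and the zinc-finger factor Sall4 at 207 and 191 CPM in naïve ESCs and 186 and 182 CPM in early gastruloids (−0.11 ± 0.06).

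The risers of this list were Lin28a and Utf1. Lin28a, which blocks let-7 microRNA maturation, rose from 83.5 and 87.6 to 384 and 382 CPM (2.16 ± 0.05, adjusted p = 3.52e-31). Utf1, a chromatin-bound regulator of bivalent genes, rose from 143 and 159 to 472 and 481 CPM (1.65 ± 0.05). Of the genes that fell, Fgf4, the FGF that ESCs secrete, went from 347 and 369.8 to 136 and 143 CPM (−1.36 ± 0.06) and Gdf3, a TGFβ-family ligand, from 210.1 and 226 to 108 and 99.6 CPM (−1.07 ± 0.06). The Gdf3 call was lost in a test against a 2-fold change (adjusted p = 0.253, glmTreat).

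Formative and primed epiblast genes were gained beside the naïve genes that remained. Of 17 listed, 12 were higher (background 15.6%), 4 kept (63.9%) and 1 lower (7.20%). Through the early libraries alone, 3 of the 12 passed the filter on low counts, so these 3 had to differ. Otx2, the homeodomain factor of the formative state, rose from 10.4 and 12.5 to 129 and 141 CPM (3.53 ± 0.11, adjusted p = 2.63e-30). Fgf5, an FGF of the post-implantation epiblast, rose from 0.273 and 0.175 to 30.1 and 31.5 CPM (7.09 ± 0.73), which is from 2 and 2 counts to 621 and 365. The POU factor Pou3f1 (Oct6) rose from 3.13 and 5.09 to 22.9 and 20.5 CPM (2.34 ± 0.17). Cldn6, a tight junction claudin, rose from 2.45 and 4.82 to 129 and 123 CPM (5.02 ± 0.17). Car4, a carbonic anhydrase, had no count in either naïve library and 363 and 221 counts in early gastruloids, which is at least 54.6-fold higher against the floor of 3 counts per library. Foxd3, a forkhead factor of the epiblast, fell from 49.9 and 53.6 to 15.3 and 15.99 CPM (−1.74 ± 0.10). Sox3 had a log2 fold change of 1.00 ± 0.15, at the threshold, and lost its call in 6 of 15 alternatives, among them those without naïve replicate 1 (0.94) and without early replicate 2 (0.97).

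Primitive streak and nascent mesoderm genes were gained from low or undetected levels. Of 20 listed, 17 had enough counts, and 12 were higher (background 15.6%), 1 lower (7.20%), 1 kept (63.9%) and 3 neither. Of the 12, 6 passed the filter through the early libraries alone. T (GRCm39 chromosome 17, 8653062 to 8661328), the T-box factor of the streak and notochord, had 19 and 37 counts in naïve ESCs and 4317 and 2416 in early gastruloids. Its level rose from 2.59 and 3.25 to 209 and 209 CPM, a log2 fold change of 6.12 ± 0.20 (adjusted p = 1.79e-34), and both early libraries stood far above both naïve ones. On the TPM scale, which corrects for gene length and lets genes be compared, T averaged 319.8 in early gastruloids, with Wnt8a at 125, Fst at 55.9 and Fgf8 at 53.6. Evx1 averaged 20.6 and Mixl1 16.1 on this scale.

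The secreted signals of the streak rose with T. Wnt8a had 0 and 2 counts in naïve ESCs and 1216 and 745 in early gastruloids, or 58.99 and 64.4 CPM. The ratio of its early to naïve counts, scaled to normalized library totals, was 571 (95% interval 158 to 4720). Wnt3, the ligand required to form the streak, rose from 0.818 and 0.965 to 29.1 and 31.4 CPM (5.03 ± 0.35). Fgf8, which streak cells need to move away from it, rose from 0.409 and 0.263 to 19.9 and 20.9 CPM (5.94 ± 0.59). Fst (follistatin), which binds activin, rose from 9.54 and 7.81 to 72.3 and 72.5 CPM (3.09 ± 0.13). Nodal stood at 126 and 129.9 CPM in naïve ESCs and 238 and 261 CPM in early gastruloids, a log2 fold change of 0.96 ± 0.06 that was just short of the threshold. Wnt3a, with 5 and 7 counts in naïve ESCs and 26 and 8 in early gastruloids, had too few to be tested.

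Transcription factors of the streak rose to lower levels than T. Evx1, a homeodomain factor of the posterior streak, rose from 0.409 and 0.526 to 15.8 and 17.6 CPM (5.08 ± 0.50), and Mixl1, a homeodomain factor of mesendoderm, from 0.409 and 0.351 to 10.8 and 10.1 CPM (4.77 ± 0.57). Eomes, a T-box factor of anterior mesendoderm, was already present at 9.67 and 7.46 CPM in naïve ESCs and rose to 31.8 and 32.8 CPM (1.95 ± 0.14). Snai1, which represses E-cadherin, rose from 3.68 and 4.65 to 12.5 and 11.4 CPM (1.50 ± 0.20). Lhx1 and Aplnr, a LIM homeodomain factor and the apelin receptor of early mesoderm, had no count in naïve ESCs and 1.65 and 1.38 CPM and 2.28 and 2.85 CPM in early gastruloids. These are at least 4.51-fold and 7.64-fold higher. Amot, an angiomotin that binds YAP, rose from 2.998 and 4.298 to 36.6 and 39.2 CPM (3.31 ± 0.16).

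Other members of the list were not gained. Gsc (goosecoid), of the anterior streak, was lower at 5.86 and 6.75 CPM in naïve ESCs and 2.18 and 2.51 CPM in early gastruloids (−1.46 ± 0.26), a call that a test against a 2-fold change lost (adjusted p = 0.0658, glmTreat). Mesp1, the factor of the earliest cardiac and cranial mesoderm, had 0 and 0 counts in naïve ESCs and 2 and 0 in early gastruloids. The mesoderm receptor genes Pdgfra and Kdr stood at 1.21 and 1.12 CPM and 0.9702 and 0.864 CPM in early gastruloids, against 0.681 and 0.877 and 1.77 and 1.93 CPM in naïve ESCs, and were neither kept nor DETs.

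**Figure D3:**
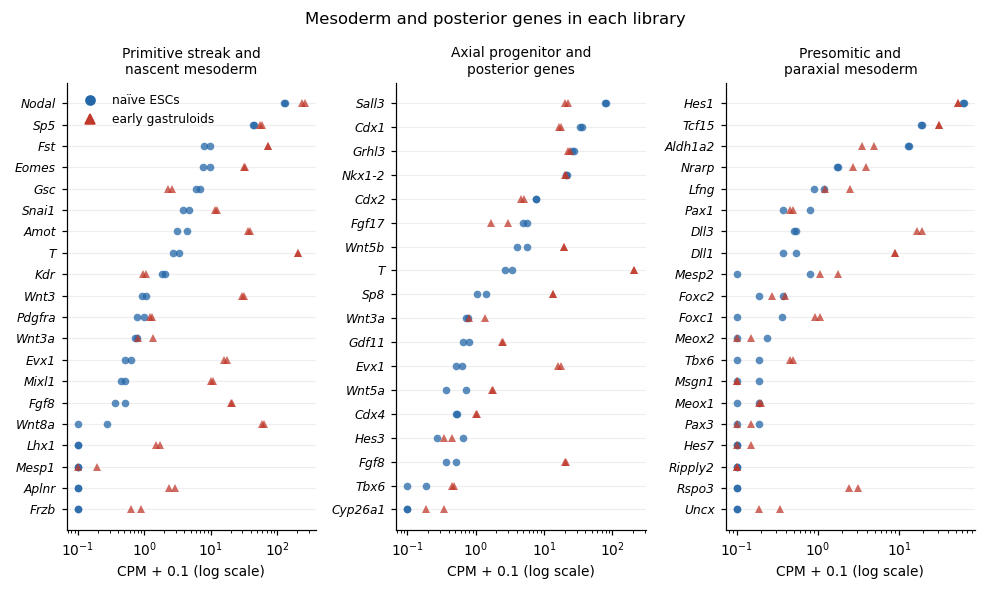
CPM of each library, on a log scale after adding 0.1, for streak and nascent mesoderm genes (left), axial progenitor and posterior genes (middle) and presomitic and paraxial genes (right), each ordered by the naïve mean, with blue circles for naïve ESCs and red triangles for early gastruloids. T, Fgf8, Wnt8a, Wnt3 and Evx1 lie far to the right in early gastruloids, whereas Msgn1, Hes7 and Ripply2 sit at or next to 0 in all 4 libraries.

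Axial progenitor and posterior genes were split. Of 18 listed, 14 had enough counts, and 7 were higher (background 15.6%), 3 lower (7.20%), 2 kept (63.9%) and 2 neither. T, Fgf8 and Evx1, counted above, are 3 of the 7, and 4 of the 7 passed the filter through the early libraries alone. Sp8, a zinc-finger factor of the tail bud, rose from 0.954 and 1.32 to 13.6 and 13.4 CPM (3.51 ± 0.35), and Wnt5b, a non-canonical WNT ligand, from 5.59 and 3.95 to 19.7 and 19.5 CPM (2.09 ± 0.19). Gdf11, the TGFβ-family ligand of trunk-to-tail transition, rose from 0.545 and 0.702 to 2.43 and 2.33 CPM (1.88 ± 0.45). Wnt5a, the remaining higher gene, had 2 and 7 counts in naïve ESCs and 35 and 19 in early gastruloids (1.78 ± 0.57). Its call was lost with DESeq2 (adjusted p = 0.0685) and in a test against a 2-fold change (0.126, glmTreat).

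The CDX factors, which activate trunk HOX genes, were not gained. Cdx1 was already at 34.1 and 35.96 CPM in naïve ESCs and stood at 16.6 and 17.6 CPM in early gastruloids (−1.04 ± 0.11), a call lost in 4 of 15 alternatives, that without early replicate 1 among them (−0.99). Cdx2 stood at 7.63 and 7.54 CPM in naïve ESCs and 4.51 and 4.93 CPM in early gastruloids (−0.70 ± 0.21) and Cdx4 below 1 CPM in all 4 libraries. Nkx1-2, a homeodomain factor of the caudal epiblast, was kept at 21.4 and 20.96 CPM in naïve ESCs and 21.1 and 20.1 CPM in early gastruloids, with overlapping groups. Sall3, a spalt-family zinc-finger factor, fell from 79.03 and 81.7 to 22.7 and 20.1 CPM (−1.89 ± 0.09). Cyp26a1, the retinoic acid-degrading enzyme of the tail bud, had 0 and 0 counts in naïve ESCs and 5 and 1 in early gastruloids.

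HOX genes, which give cells their position along the body axis, were nearly silent at 72 h. Of 39 HOX genes, 32 had too few counts to be tested, 1 was higher (background 15.6%), 3 were lower (background 7.20%) and 3 neither. The level of all 39 summed to 32.4 and 24.7 CPM in naïve ESCs and to 12.1 and 12.6 CPM in early gastruloids, which is 238 and 282 counts and 250 and 146 counts. The gene that rose was Hoxb1 (GRCm39 chromosome 11, 96256578 to 96259082), a 3′ gene of its cluster, with 0 and 0 counts in naïve ESCs and 56 and 29, or 2.72 and 2.51 CPM, in early gastruloids, at least 7.77-fold higher. The genes that fell were all of the C cluster: Hoxc13 from 15.7 and 12.1 to 3.15 and 3.72 CPM (−2.01 ± 0.21), Hoxc12 from 3.27 and 2.37 to 0.146 and 0.173 CPM (−4.04 ± 0.77) and Hoxc4 from 2.998 and 3.07 to 0.194 and 0.173 CPM (−3.95 ± 0.67). Hoxb1 passed the filter on low counts through the early libraries alone, and Hoxc12 and Hoxc4 through the naïve libraries alone, so these genes had to differ. With no filter on low counts, or the filter applied over all 8 mouse libraries, 2 HOX genes were higher.

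Of 20 presomitic and paraxial mesoderm genes, 11 had too few counts to be tested. Of the other 9, 5 were higher (background 15.6%), 1 lower (7.20%), 2 kept (63.9%) and 1 neither. The defining factors had almost no reads in early gastruloids: Tbx6 8 and 4 counts, Msgn1 0 and 0, Hes7 1 and 0, Meox1 2 and 1 and Ripply2 0 and 0. The 5 higher genes included the Notch ligands Dll1, which rose from 0.273 and 0.439 to 8.83 and 8.73 CPM (4.52 ± 0.56), and Dll3, which rose from 0.409 and 0.439 to 19.11 and 16.5 CPM (5.36 ± 0.52). Rspo3, a WNT-potentiating R-spondin, had no count in naïve ESCs and 3.01 and 2.33 CPM in early gastruloids, at least 7.95-fold higher. All 3 passed the filter through the early libraries alone, as did Mesp2. Lfng (1.09 and 0.789 CPM in naïve ESCs and 2.38 and 1.12 CPM in early gastruloids) and Mesp2 (0 and 0.702 CPM in naïve ESCs and 1.65 and 0.951 CPM in early gastruloids) were called at low counts, and the calls did not hold without early replicate 1 (adjusted p = 0.686 for Lfng and 0.222 for Mesp2) or with DESeq2 (0.137 and 0.0634). Lfng also lost its call without naïve replicate 2 (adjusted p = 0.262) and Mesp2 without naïve replicate 1 (0.17). Tcf15, a bHLH factor that is also expressed in epiblast, was kept at 19.3 and 18.4 CPM in naïve ESCs and 31.05 and 31.03 CPM in early gastruloids (0.72 ± 0.10). Aldh1a2, the retinoic acid-synthesizing enzyme of somites, fell from 13.4 and 12.9 to 3.44 and 4.75 CPM (−1.73 ± 0.17).

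Of 19 lateral, cardiac and blood mesoderm genes, 12 had too few counts, 2 were higher (background 15.6%), 2 lower (7.20%) and 3 neither. Msx1, a homeodomain target of BMP, rose from 0.409 and 0.614 to 4.27 and 4.15 CPM (2.96 ± 0.47), and Lmo2, a LIM-only cofactor of blood formation, from 0.273 and 0.351 to 4.27 and 3.54 CPM (3.59 ± 0.64). Both passed the filter on low counts through the early libraries alone, so they had to differ. Hand1, Gata6 and Isl1 had 14 and 10, 17 and 5 and 9 and 2 counts in the 2 early libraries, and Gata5 had none in any of the 4 libraries.

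**Figure D4:**
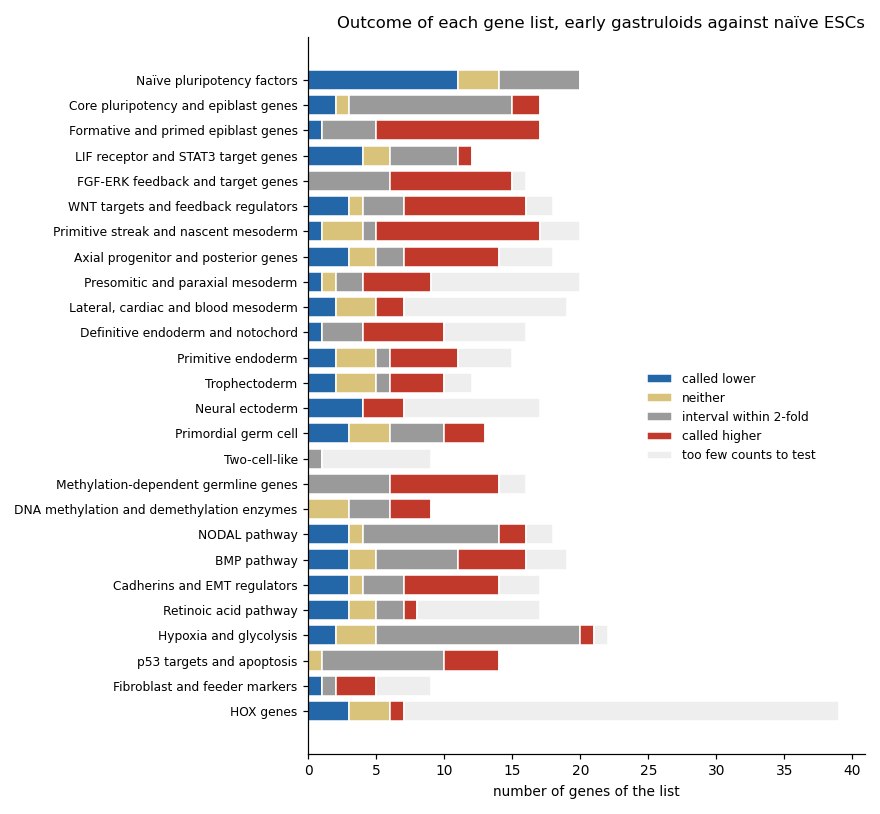
Number of genes of each of 26 lists that were called lower (blue), neither (yellow), kept (grey), called higher (red) or had too few counts to test (pale grey) in early gastruloids against naïve ESCs. Grey fills most of the core pluripotency, NODAL and glycolysis bars, red most of the formative and streak bars, and pale grey most of the HOX, paraxial and lateral mesoderm bars.

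Markers of other cell types were used to see what else the aggregates held. Of 16 definitive endoderm and notochord genes, 10 had enough counts, and 6 were higher (background 15.6%), 1 lower (7.20%) and 3 kept (63.9%). Some endoderm and notochord genes were close to the floor: Sox17 had 6 and 5 counts in naïve ESCs and 8 and 5 in early gastruloids, Foxa1 4 and 1 and 4 and 5, and Shh 0 and 0 and 1 and 0. Foxa2, a forkhead factor of endoderm and node, was higher at 0.136 and 0.175 CPM in naïve ESCs and 1.94 and 2.25 CPM in early gastruloids, a ratio of scaled counts of 12.8 (95% interval 4.20 to 63.7). It passed the filter on low counts through the early libraries alone, so it had to differ. Foxj1 (10-fold) and Chrd (2.78-fold) were also higher. The Chrd call was lost in a test against a 2-fold change (adjusted p = 0.166, glmTreat). The summed level of this list, 497 and 502 CPM in naïve ESCs and 2002 and 1978 CPM in early gastruloids, came mostly from Trh, which encodes thyrotropin-releasing hormone and rose from 273 and 272 to 1431 and 1408 CPM (2.38 ± 0.05). Epcam, an epithelial adhesion molecule, rose from 72.6 and 72.1 to 280.2 and 279 CPM (1.95 ± 0.06), and Krt18, a simple-epithelium keratin, from 2.86 and 1.75 to 29.3 and 27.6 CPM (3.70 ± 0.23).

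Of 17 neural ectoderm genes, 10 had too few counts, 3 were higher (background 15.6%) and 4 lower (7.20%). Sox1, the earliest neural factor, fell from 2.32 and 2.37 to 0.388 and 0.259 CPM (−2.74 ± 0.51), Sox21 from 19.6 and 23.9 to 2.04 and 1.82 CPM (−3.48 ± 0.22) and the forebrain factor Hesx1 from 8.99 and 10.6 to 0.631 and 0.951 CPM (−3.71 ± 0.35). Sox1 passed the filter on low counts through the naïve libraries alone, so it had to differ. Nes, an intermediate filament of progenitors, rose from 23.7 and 21.1 to 65.2 and 67.2 CPM (1.57 ± 0.09). The other higher genes were Pax6 (2.87-fold) and Irx3 (3.51-fold). A test against a 2-fold change lost both calls (adjusted p = 0.162 and 0.128, glmTreat). Through the early libraries alone, 1 of the 3 higher genes passed the filter on low counts, so it had to differ. Olig2 had no count in any of the 4 libraries. The list summed to 121 and 109.6 CPM in naïve ESCs and 87.3 and 86.5 CPM in early gastruloids.

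Of 15 primitive endoderm genes, 11 were tested, with 5 higher (background 15.6%), 2 lower (7.20%), 1 kept (63.9%) and 3 neither. Gata4 (2.91 and 2.42 CPM), Pdgfra and Sox7 (1.89 and 2.25 CPM) were low in early gastruloids, and none of them was called higher or lower. Gata4 stood at 1.36 and 2.19 CPM in naïve ESCs, and Sox7 was 1.1-fold lower in early gastruloids. The basement membrane genes differed in direction. Lama1, the laminin α1 chain, fell from 116 and 118 to 11.1 and 11.4 CPM (−3.38 ± 0.10), whereas Lamb1, the β1 chain, rose from 32.6 and 39.7 to 196 and 204 CPM (2.44 ± 0.07). Sparc, a collagen-binding glycoprotein, fell from 784 and 811 to 194 and 209 CPM (−1.99 ± 0.05). Col4a1 (2.87-fold), Col4a2 (2.35-fold), Fgfr2 (3.16-fold) and Pth1r (5.03-fold) were the other higher genes. The Col4a2 and Pth1r calls were lost in a test against a 2-fold change (adjusted p = 0.179 and 0.0522, glmTreat). Through the early libraries alone, 1 of the 5 higher genes passed the filter on low counts, so it had to differ. Of 12 trophectoderm genes, 10 were tested, with 4 higher (background 15.6%), 2 lower (7.20%), 1 kept (63.9%) and 3 neither. The trophoblast factors Gata3 and Tfap2a fell to 0.291 and 0.691 and 1.698 and 1.47 CPM, Elf5 had no count, and Ascl2 rose from 1.499 and 2.105 to 12.2 and 12.2 CPM (2.71 ± 0.28). The keratin genes Krt7 (5.61-fold) and Krt8 (3.92-fold) were also higher. Gata3 passed the filter on low counts through the naïve libraries alone, and 1 of the 4 higher genes through the early libraries alone. Both had to differ. Fibroblast and feeder markers summed to 18.9 and 22.6 CPM in naïve ESCs and 29.6 and 29.9 CPM in early gastruloids. Of 9 such genes, 5 were tested, with 3 higher (background 15.6%), 1 lower (7.20%) and 1 kept (63.9%). Among these 5, 1 higher gene passed the filter on low counts through the early libraries alone and 1 gene through the naïve libraries alone. Both had to differ. Thy1 (4.94-fold) and Pdgfrb (2.31-fold) were among the higher, and Col1a1 was lower (6.32-fold). The Pdgfrb call was lost in a test against a 2-fold change (adjusted p = 0.343, glmTreat). Postn had no count in any of the 4 libraries and Col3a1 had 1 and 2 counts in early gastruloids.

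Target genes of the signals that the media change were followed next. Of 12 genes of the LIF receptor and of STAT3, 4 were lower (background 7.20%), 1 higher (15.6%), 5 kept (63.9%) and 2 neither. Socs3, the feedback inhibitor of STAT3, fell from 50.3 and 49.6 to 8.73 and 9.51 CPM (−2.46 ± 0.12, adjusted p = 1.13e-21). Bcl3, an IκB-family nuclear cofactor, fell from 51.1 and 52.4 to 3.88 and 3.63 CPM (−3.77 ± 0.16), Stat3 itself from 104 and 108 to 36.9 and 30.7 CPM (−1.63 ± 0.08) and the kinase gene Pim1 from 295 and 299.9 to 102 and 108 CPM (−1.50 ± 0.06). The receptor chains Lifr (−0.67 ± 0.10) and Il6st (−0.59 ± 0.06) and the kinase Jak1 (−0.33 ± 0.07) were kept. Cish, the single higher member, stood at 0.954 and 0.702 CPM in naïve ESCs and 1.55 and 1.99 CPM in early gastruloids and lost its call in 4 of 15 alternatives, among them those without naïve replicate 2 (adjusted p = 0.233) and without early replicate 2 (0.103).

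Of 16 FGF-ERK feedback and target genes, 15 were tested, and 9 were higher (background 15.6%), 6 kept (63.9%) and 0 lower (7.20%). Dusp4 and Dusp6, phosphatases that switch off ERK, rose from 7.36 and 7.98 to 98.5 and 104 CPM (3.70 ± 0.12) and from 16.5 and 18.7 to 71.8 and 71.8 CPM (2.01 ± 0.09). Spred1, a RAS-ERK inhibitor, rose from 18.8 and 20.9 to 88.5 and 96.9 CPM (2.21 ± 0.10). The immediate early genes Egr1 and Fos rose from 2.18 and 2.37 to 40.4 and 33.9 CPM (4.03 ± 0.27) and from 1.23 and 1.14 to 17.9 and 20.1 CPM (3.99 ± 0.31). The ETS factor genes Etv4 (−0.75 ± 0.08) and Etv5 (0.46 ± 0.05), Myc (−0.40 ± 0.13) and Spry2 (0.49 ± 0.07) were kept.

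**Figure D5:**
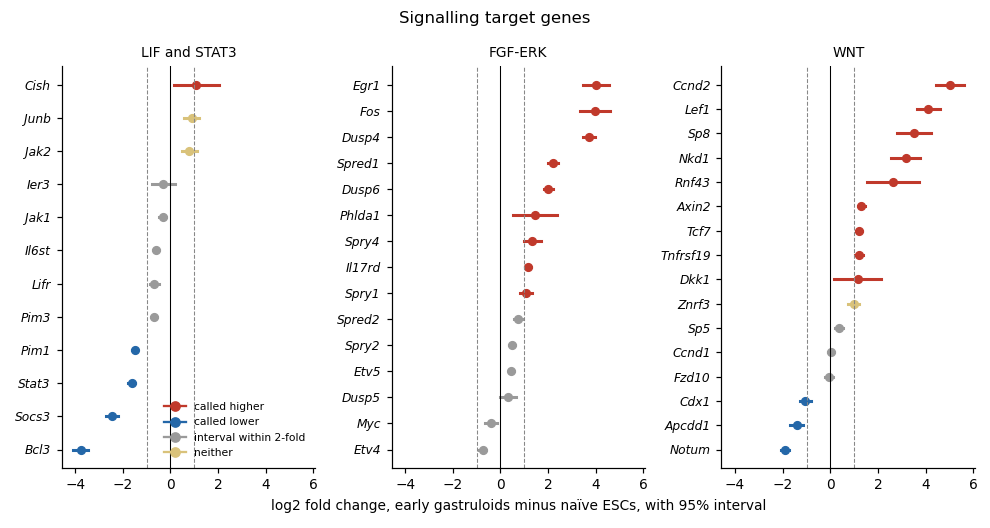
Log2 fold change of early gastruloids minus naïve ESCs for tested target genes of LIF-STAT3, FGF-ERK and WNT signalling, with lines for the 95% interval and dashed lines at the 2-fold threshold. No FGF-ERK gene is blue (called lower), whereas the WNT panel runs from Notum at −1.92 to Ccnd2 at 5.01.

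WNT target genes diverged, with CHIR99021 present in both groups. Of 18 listed, 16 were tested, and 9 were higher (background 15.6%), 3 lower (7.20%), 3 kept (63.9%) and 1 neither. Axin2, the feedback scaffold most often used as a WNT readout, rose from 42.8 and 44.8 to 108 and 109 CPM (1.30 ± 0.08, adjusted p = 2.41e-18). The TCF/LEF factor gene Lef1 rose from 1.64 and 2.37 to 36.5 and 35.96 CPM (4.12 ± 0.24) and Tcf7 from 74.9 and 74.5 to 172 and 169 CPM (1.19 ± 0.07). Ccnd2, cyclin D2, rose from 0.818 and 2.02 to 48.9 and 51.8 CPM (5.01 ± 0.29), whereas Ccnd1, cyclin D1, was kept at 175 and 191 CPM in naïve ESCs and 191 and 185 CPM in early gastruloids. The feedback inhibitor Nkd1 rose from 1.64 and 1.14 to 11.7 and 12.4 CPM (3.15 ± 0.30). Other feedback inhibitors were lower: Notum, which removes the lipid of WNT ligands, fell from 91.8 and 93.1 to 23.8 and 25.6 CPM (−1.92 ± 0.08), and Apcdd1 from 18.9 and 18.3 to 6.84 and 7.09 CPM (−1.42 ± 0.14). Sp5, a zinc-finger repressor, was kept at 44.1 and 43.9 CPM in naïve ESCs and 55.4 and 59.6 CPM in early gastruloids (0.38 ± 0.08). Dkk1 stood below 1.6 CPM in all 4 libraries, and its call was lost in 4 of 15 alternatives, among them those without naïve replicate 1 (adjusted p = 0.0538), naïve replicate 2 (0.154) and early replicate 1 (0.132).

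Promoter windows of these genes show that the same letters stood before genes that rose, were kept and fell. The 250 bases before the canonical transcript start of each tested gene (GENCODE M39 on GRCm39, 13747 windows) were searched on both strands for the TCF/LEF letters CTTTGAT or CTTTGAA, which are the core of sites bound by the WNT effectors. A match was found in 5.88% of all windows, 6.07% of those of the higher genes and 5.76% of those of the lower genes. It was found in 5 of 16 tested WNT targets (31.2%) and in 5 of 17 tested streak genes (29.4%), with Sp5 in both lists. The lists hold genes that are known WNT targets, so these shares are a description. Windows with a match, capitals marking it, are printed 5′ to 3′ on the strand of the gene for T and Mixl1, which rose as streak genes, for Axin2, which rose as a feedback gene, for Sp5, which was kept, and for Notum, which fell. The match starts at position −235 from the transcript start in T (chr17:8653005-8653254, + strand), −62 in Mixl1 (chr1:180524600-180524849, - strand), −22 in Axin2 (chr11:108811388-108811637, + strand), −104 in Sp5 (chr2:70305017-70305266, + strand) and −53 in Notum (chr11:120552020-120552269, - strand).
T: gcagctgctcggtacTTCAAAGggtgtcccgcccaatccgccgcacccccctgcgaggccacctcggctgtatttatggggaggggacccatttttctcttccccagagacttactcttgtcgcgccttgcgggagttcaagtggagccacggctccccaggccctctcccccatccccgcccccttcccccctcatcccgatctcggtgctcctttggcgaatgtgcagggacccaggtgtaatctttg
Mixl1: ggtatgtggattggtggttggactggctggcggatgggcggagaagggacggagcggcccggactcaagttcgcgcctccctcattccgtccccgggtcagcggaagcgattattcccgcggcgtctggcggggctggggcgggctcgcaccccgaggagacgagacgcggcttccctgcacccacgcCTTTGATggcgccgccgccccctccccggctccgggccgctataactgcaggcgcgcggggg
Axin2: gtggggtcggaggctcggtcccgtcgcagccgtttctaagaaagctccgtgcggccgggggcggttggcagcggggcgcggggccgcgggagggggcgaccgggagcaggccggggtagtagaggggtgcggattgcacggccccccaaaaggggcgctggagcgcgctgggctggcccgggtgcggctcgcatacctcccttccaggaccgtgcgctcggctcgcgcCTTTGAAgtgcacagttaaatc
Sp5: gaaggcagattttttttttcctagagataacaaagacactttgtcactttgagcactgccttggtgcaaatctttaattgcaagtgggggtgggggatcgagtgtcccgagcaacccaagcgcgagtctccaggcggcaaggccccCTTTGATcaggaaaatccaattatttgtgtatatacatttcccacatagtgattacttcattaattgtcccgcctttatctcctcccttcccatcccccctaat
Notum: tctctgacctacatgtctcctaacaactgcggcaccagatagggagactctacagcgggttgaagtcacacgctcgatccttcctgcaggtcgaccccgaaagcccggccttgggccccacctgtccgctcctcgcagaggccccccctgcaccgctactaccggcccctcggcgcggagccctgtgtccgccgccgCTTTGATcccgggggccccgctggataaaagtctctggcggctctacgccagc

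Letters of other factors were searched in the same windows. The KLF letters GGGCGTG were in 11.6% of all windows, 10.6% of those of higher and 9.61% of those of lower genes. The ESRRB letters TCAAGGTCA were in 0.356%, 0.234% and 0.303%, the STAT3 letters TTCCNGGAA in 0.953%, 0.607% and 0.404%, and the octamer ATGCAAAT of POU factors in 1.27%, 1.35% and 2.43%. The T-box letters AGGTGTGA were in 0.684%, 1.12% and 0.607%. These shares were not tested, and 4 of the motifs were in fewer than 30 windows of each called set.

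Of 18 NODAL pathway genes, 16 were tested, and 10 were kept (62.5%, near the 63.9% kept of all tested genes). The rest were 3 lower (background 7.20%), 2 higher (15.6%) and 1 neither. Besides Nodal, Fst and Cripto above, the antagonist Lefty1 was kept at 182 and 201 CPM in naïve ESCs and 284 and 279.8 CPM in early gastruloids (0.55 ± 0.06), and its relative Lefty2 fell from 712 and 733 to 315 and 327 CPM (−1.17 ± 0.05). Pcsk6, a convertase that activates NODAL, fell from 228 and 222 to 71.1 and 73.7 CPM (−1.64 ± 0.07), whereas the convertase gene Furin was kept (−0.15 ± 0.09). Smad2 (0.02 ± 0.07), Smad3 (−0.62 ± 0.08) and Foxh1 (0.32 ± 0.07), which transmit the signal, were kept. Of 19 BMP pathway genes, 16 were tested, with 5 higher (background 15.6%), 3 lower (7.20%), 6 kept (63.9%) and 2 neither. The ligand gene Bmp7 rose from 7.09 and 8.24 to 60.98 and 58.5 CPM (2.94 ± 0.13), and Bmp4 stood at 7.22 and 9.82 CPM in naïve ESCs and 14.7 and 13.2 CPM in early gastruloids (0.69 ± 0.16). The BMP target Id3 was higher at 6.27 and 9.297 CPM in naïve ESCs and 17.9 and 19.7 CPM in early gastruloids. Id4 was lower at 48.2 and 41.5 CPM in naïve ESCs and 18.9 and 20.4 CPM in early gastruloids. The Id3 and Id4 calls were lost in a test against a 2-fold change (adjusted p = 0.168 and 0.0672, glmTreat). Of 17 retinoic acid pathway genes, 9 had too few counts, the degrading enzymes Cyp26a1, Cyp26b1 and Cyp26c1 among them. Among the 8 tested, 1 was higher (background 15.6%), 3 lower (7.20%), 2 kept (63.9%) and 2 neither. The higher gene was Crabp2, a retinoic acid-binding protein, from 1.09 and 0.526 to 8.88 and 7.17 CPM (3.44 ± 0.40). Aldh1a3 (8.86-fold) and Crabp1 (2.18-fold) were lower, as was Aldh1a2 above. The Crabp1 call was lost in a test against a 2-fold change (adjusted p = 0.451, glmTreat). Through the naïve libraries alone, 1 of the 8 passed the filter on low counts.

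Epithelial genes were held or gained and several mesenchymal genes were lower. Of 17 cadherin and epithelial-mesenchymal transition genes, 14 were tested, with 7 higher (background 15.6%), 3 lower (7.20%), 3 kept (63.9%) and 1 neither. Cdh1 (E-cadherin) was kept at 575 and 586 CPM in naïve ESCs and 708 and 738 CPM in early gastruloids (0.32 ± 0.05), and so was Cdh2 (N-cadherin) at 14.9 and 13.2 CPM in naïve ESCs and 14.1 and 12.8 CPM in early gastruloids, with overlapping groups. The epithelial factor Grhl2 rose from 4.09 and 5.35 to 94.5 and 91.2 CPM (4.26 ± 0.16), and the epithelial splicing factor Esrp1 from 1.499 and 2.19 to 88.5 and 84.2 CPM (5.49 ± 0.23). Crb3, a polarity protein, rose from 4.22 and 3.51 to 19.21 and 20.1 CPM (2.36 ± 0.19). The intermediate filament gene Vim fell from 548 and 590.4 to 147 and 157 CPM (−1.91 ± 0.05), Fn1 (fibronectin) from 2631 and 2681 to 1239 and 1246 CPM (−1.10 ± 0.05) and the repressor gene Zeb1 from 34.3 and 29.996 to 9.36 and 12.1 CPM (−1.61 ± 0.12). Mesenchymal factors were not all lower, since Snai1 and Twist1 rose, the latter from 1.23 and 2.28 to 8.15 and 8.47 CPM (2.14 ± 0.27).

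DNA methylation enzymes of the de novo class rose. Of 9 methylation and demethylation genes, 3 were higher (background 15.6%), 3 kept (63.9%), 3 neither and 0 lower (7.20%). Dnmt3a rose from 47.4 and 41.5 to 286 and 295 CPM (2.72 ± 0.07), Dnmt3b from 139 and 136 to 569 and 572 CPM (2.05 ± 0.05) and their cofactor Dnmt3l from 55.3 and 55.7 to 308 and 314 CPM (2.49 ± 0.06). The maintenance enzyme gene Dnmt1 was kept at 485 and 455 CPM in naïve ESCs and 443 and 412 CPM in early gastruloids, as was its cofactor Uhrf1 (−0.49 ± 0.05). The dioxygenase genes Tet1 and Tet2 stood at log2 fold changes of 0.96 ± 0.07 and −0.91 ± 0.10, in opposite directions and short of the threshold.

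Of 16 germline genes that are held silent by promoter methylation in somatic cells, 14 were tested, with 8 higher (background 15.6%), 6 kept (63.9%) and 0 lower (7.20%). Mael, of the piRNA pathway, rose from 2.32 and 4.39 to 22.9 and 26.9 CPM (2.78 ± 0.21), Ddx4 (Vasa) from 5.59 and 6.58 to 20.03 and 21.7 CPM (1.74 ± 0.16) and the synaptonemal complex gene Sycp3 from 3.27 and 0.965 to 14.2 and 14.9 CPM (2.94 ± 0.30). Dazl, a germline RNA-binding protein, was kept at 11.6 and 12.6 CPM in naïve ESCs and 12.1 and 13.4 CPM in early gastruloids, with overlapping groups. Primordial germ cell genes were mixed, with 3 higher (background 15.6%), 3 lower (7.20%), 4 kept (63.9%) and 3 neither of 13. Tfap2c was kept at 79.9 and 74.1 CPM in naïve ESCs and 102 and 100.1 CPM in early gastruloids, Prdm1 stood at 27.5 and 30.8 CPM in naïve ESCs and 54.6 and 58.1 CPM in early gastruloids (0.93 ± 0.09), and the receptor gene Kit fell from 248 and 237 to 26.1 and 27.2 CPM (−3.19 ± 0.07). Among 9 two-cell-like genes in the table only Eif1a had enough counts, and the Zscan4 genes had at most 4 counts in any of the 4 libraries.

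Of 22 glycolysis and hypoxia genes, 21 were tested, with 15 kept (71.4%, against 63.9% of all tested genes). The rest were 2 lower (background 7.20%), 1 higher (15.6%) and 3 neither. The glucose transporter gene Slc2a3 fell from 2653 and 2748 to 839 and 878 CPM (−1.65 ± 0.05), and hexokinase 2 (Hk2) from 620.4 and 646 to 273 and 289 CPM (−1.17 ± 0.05). Pdk1, which restrains pyruvate entry into mitochondria, rose from 64.04 and 62.98 to 302 and 312 CPM (2.27 ± 0.06). Aldoa (−0.07 ± 0.04), Pkm (0.03 ± 0.04) and Ldha (−0.40 ± 0.04) were kept. Targets of p53 and apoptosis genes had 4 higher (background 15.6%), 9 kept (64.3%, near the 63.9% kept of all tested genes), 1 neither and 0 lower of 14. Trp53inp1 rose from 108 and 109.9 to 375 and 409 CPM (1.85 ± 0.06) and Pmaip1 (Noxa) from 33.2 and 33.1 to 113 and 103 CPM (1.71 ± 0.08). Cdkn1a (p21) was kept at 173 and 196 CPM in naïve ESCs and 258 and 265 CPM in early gastruloids (0.50 ± 0.06).

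Genes were also ranked by fold change over the whole table, among those with at least 10 CPM in the higher group and over 3 counts in a library of the other, a limit that leaves out Wnt8a and Fgf5. The 10 largest rises so ranked included T and Esrp1, and the first was Epha1, an ephrin receptor, from 0.545 and 0.263 to 78.1 and 78.2 CPM (7.67 ± 0.54). Hs6st2, a heparan sulphate sulphotransferase, rose from 0.545 and 0.614 to 59.4 and 57.1 CPM (6.61 ± 0.42), Enpp3, an ectonucleotidase, from 1.64 and 1.05 to 94.6 and 94.9 CPM (6.20 ± 0.28) and Slc40a1, the iron exporter ferroportin, from 0.681 and 0.789 to 44.1 and 47.97 CPM (5.92 ± 0.38). Mrc2, Cacna1b, Syt13 and Arhgef5 had log2 fold changes between 5.50 and 5.85. Epha1, Hs6st2, Slc40a1 and these genes passed the filter on low counts through the early libraries alone, so they had to differ. Each had at most 9 counts in either naïve library, so the folds rest on few naïve counts. A further 77 of the higher genes had no count in either naïve library and so could only be called higher. Those with the most counts among them were Car4, Alox15 (337 and 174 counts in early gastruloids), Enpp2 (284 and 184), Foxb1 (207 and 108) and Gbp2 (174 and 108).

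The 10 largest falls under the same limits were led by Mal, a membrane-raft proteolipid, from 13.5 and 10.4 to 0.194 and 0.173 CPM (−5.90 ± 0.64), and by Mras, a RAS-family GTPase, from 47.4 and 44.9 to 0.825 and 1.296 CPM (−5.51 ± 0.27). Calcoco2 (NDP52), an autophagy receptor, fell from 113 and 109 to 3.83 and 4.32 CPM (−4.78 ± 0.14) and Xaf1, an XIAP-binding protein, from 50.96 and 46.8 to 1.698 and 1.902 CPM (−4.77 ± 0.22). Accsl, Msln, Serpinb1a, Kbtbd11, the pseudogene 2210409E12Rik and the Crxos locus had log2 fold changes between −4.89 and −4.39. Mal, Msln, Serpinb1a, 2210409E12Rik and Crxos passed the filter on low counts through the naïve libraries alone, so they had to differ. Reads that map to several places were not counted, so a pseudogene's level may be incomplete.

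Among called genes outside the mitochondrial genome, the largest gains in CPM, a share of the library and not an absolute amount, were in Trh, Rbbp7, Peg10, Col18a1 and Ddit4. Peg10, an imprinted gene derived from a retrotransposon and expressed from the paternal allele, rose from 19.3 and 17.5 to 633 and 639 CPM (5.12 ± 0.08). Ddit4 (REDD1), an inhibitor of mTORC1, rose from 122 and 124 to 646 and 639 CPM (2.38 ± 0.05). Rbbp7 (1.01 ± 0.05), a histone-binding subunit of several chromatin complexes, and Col18a1 (1.04 ± 0.05), a basement membrane collagen, lay close to the 2-fold threshold. The largest losses in CPM, ranked likewise, were in Slc2a3, Fn1, Asns, Ckb and Spp1. Asns, asparagine synthetase, fell from 1826 and 1848 to 692 and 714 CPM (−1.39 ± 0.05), and Ckb, the brain-type creatine kinase, from 953 and 1049 to 273 and 277 CPM (−1.86 ± 0.05).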

How the data were processed

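RNA-seq of mouse naïve ESCs and early gastruloids was analysed, 2 libraries each. The authors isolated polyadenylated RNA and used Trimmomatic 0.39 for trimming, STAR for alignment to GRCm39 and featureCounts at its defaults for counting, that is without strand and leaving out reads that map to several places. The annotation release, and which of the paired-end configurations each sample had, are not given in the sources used here. The deposited values are whole-number counts per gene, not normalized. The human table was not used here, and all mouse columns were mapped to samples (columns not mapped: 0).

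Of 29720 genes, 29486 were found by identifier in GENCODE M39, which gave symbols and coordinates. Genes passed edgeR's filterByExpr on the 4 libraries (a minimum of 0.86 CPM in at least 2). A gene under this minimum in both libraries of 1 group passed only through the other group, so its levels had to differ. Besides the cases given with the lists, this held for 2 higher WNT targets. It also held for 1 higher gene each of the FGF-ERK, BMP, cadherin, methylation-dependent germline and p53 lists. A further BMP gene, 1 in number, passed through the naïve libraries alone. Counts were normalized by TMM and tested with edgeR 4.0.16 (R 4.3.3, limma 3.58.1), in glmQLFit and glmQLFTest, in 1 fit of all 8 mouse libraries with 1 coefficient for each of 4 groups, the EpiLC and late gastruloid libraries entering only through the shared spread. p-values were adjusted by Benjamini-Hochberg over the 13775 tested genes. They measure the spread between 2 cultures of 1 batch. The fit was tested on simulated counts. DESeq2 1.42.0 was an alternative. TPM used the gene lengths that came with the deposited counts. Motif searches and figures used Python 3.11.15.

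The genes and lists were chosen with earlier results of these data known. Of each list, the text names the called genes of largest fold change, the most abundant genes and defining members. Outside the lists it names the 10 largest rises and falls whose groups do not overlap, with 10 CPM or more in the group of higher level and over 3 counts in a library of the other group, and the 5 largest gains and losses in CPM among called genes outside the mitochondrial genome. Genes with no count in naïve ESCs were named by count in early gastruloids, after their values were seen. The list genes Noto, Tpbpa, Gdf1 and S100a4 and 5 two-cell-like genes had no row under these symbols.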

Additional observations from a re-analysis of the deposited data

How the results depend on the processing

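Of the 311 listed or named genes tested, 176 were called, and the sign of none of these turned in those of 15 alternatives that tested it (each alternative tested at least 244 of the 311). Of the 135 not called, 11 turned sign in at least 1 alternative, with log2 fold changes of at most 0.28 in size, and the median log2 fold change of all tested genes stayed within 0.05 of 0 in every alternative but the one without a filter (0.20). The counts depended on the filter and on the fold threshold. With at least 10 counts in each of the 4 libraries, which removes genes absent from naïve ESCs, 1099 genes were higher, and 6 streak, 2 axial, 0 paraxial and 0 HOX genes were gained. With the adjusted p alone, 4719 genes were higher, 4430 lower and 17 naïve genes lower, and 51.6% of calls were higher against 68.4%. With glmTreat against a 2-fold change, 1390 were higher and 635 lower, and 6 axial and 3 paraxial genes were gained. DESeq2 and the thinned libraries also gave 6 axial and 3 paraxial genes. With no filter, or the filter over all 8 libraries, 2 HOX genes were gained. The 6 kept naïve genes numbered 6 or 7 in every alternative.

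Leaving out 1 replicate at a time gave 1971 to 2300 higher and 926 to 1018 lower genes, 11 to 13 naïve genes lower and 6 kept, 12 core genes kept, and 12 to 13 streak, 7 axial, 4 to 6 paraxial and 1 HOX gene gained. The arm with 1 library was then assumed to vary like the other groups.

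Replicate numbers are shared between groups but did not pair the libraries: deviations of same-numbered naïve and early libraries from their group means had a correlation of −0.0024 across genes, and the 6 pairs of groups lay between −0.054 and −0.0024. With the replicate block 2134 genes were higher and 985 lower, and Lfng lost its call (adjusted p = 0.0522, edgeR).

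Counts near the floor limit what the HOX, paraxial and lateral mesoderm lists can show: a gene with no count could reach 0.409 CPM in the smallest library. Self-consistency of 2 replicates of 1 batch says nothing of other differentiations.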

Other observations

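The other mouse stages give a scale for how much of the naïve programme was left at 72 h. Summed over the 20 naïve factors, EpiLCs (epiblast-like cells, made from the same ESCs in activin A and bFGF) had 420 and 436 CPM and late gastruloids 346 and 359 CPM, beside 3067 and 3069 CPM in early gastruloids. In all 20 genes the mean was above that of EpiLCs, a comparison that was not tested here. Esrrb stood at 18.2 and 16.1 CPM in EpiLCs and 532 and 508 CPM in early gastruloids, Klf2 at 23.6 and 23.8 and 327 and 325 CPM, and Tfap2c, of the core list, at 5.93 and 7.04 and 102 and 100.1 CPM. The formative genes stood the other way in most cases, with 4 of the 12 risers higher in mean in early gastruloids than in EpiLCs. Pou3f1 was at 401 and 414 CPM in EpiLCs and 22.9 and 20.5 CPM in early gastruloids, and Dnmt3b at 1788 and 1822 and 569 and 572 CPM. All 12 streak genes that rose had a mean above that of EpiLCs, T at 2.37 and 0.855 and 209 and 209 CPM in the same order.

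Some genes high at 72 h were lower in late gastruloids, again as values without a test: T stood at 12.4 and 14.2 CPM, Wnt8a at 3.25 and 2.78 CPM and Cripto at 33.6 and 28.1 CPM. Of the genes with too few counts to be tested at 72 h, 6 of 11 paraxial and 12 of 12 lateral, cardiac and blood mesoderm genes had at least 1 CPM in both late libraries, with Meox1 at 144 and 140.1 CPM, Foxc2 at 71.6 and 80.98 CPM and Gata6 at 183 and 179 CPM. Tbx6 (0.602 and 0.154 CPM), Msgn1 (0 and 0), Hes7 (0.241 and 0), Ripply2 (0 and 0.154) and Uncx (0.361 and 0) were below 1 CPM in late gastruloids too.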
